A study of Mus musculus with 8 samples.

Results

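Experimental autoimmune encephalomyelitis (EAE), the mouse model of multiple sclerosis, was compared with the naive state in mice deficient in the gap junction protein Cx47. The comparison was the array of Cx47-deficient EAE minus the array labelled Cx47-deficient naive. These were 2 of the 8 arrays of the series, chosen by their sample titles, and both lay on slide 1. The scanner calls a probe well above background or dim, and the 24626 genes whose probe was not dim on both of these arrays were compared. Each side had 1 array, so no difference had a replicate check, none was tested, and every fold describes these 2 arrays.

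All 8 arrays carried RNA labelled with a single dye, from C57Bl/6J mice, with spinal cord given as the tissue and astrocytes as the source. The groups were Cx47-deficient mice with EAE, with EAE and the anti-inflammatory compound iguratimod, with chronic EAE, or naive, and wild-type (WT) mice in the same 4 conditions. Titles mark the Cx47-deficient mice as icKO and the WT mice as FL or F/F, and the series title describes a conditional knockout specific to oligodendroglia. The promoter that drives it, the age of the mice, the number pooled on an array and how the astrocytes were isolated are not stated in those labels.

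In EAE, T cells directed against myelin enter the central nervous system with monocytes and neutrophils, and astrocytes and microglia become reactive. Interferon-gamma from T and NK cells acts through transcription factors that bind GAS elements, and through interferon regulatory factors, which bind ISRE elements. Their targets include chemokines, antigen presentation genes and the GTPases of cell-autonomous defence. Cx47 forms the oligodendrocyte side of gap junctions with astrocytic Cx43, encoded by Gja1.

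Levels below are log2 processed signals relative to the 75th percentile of their array, so they compare arrays for 1 gene and not genes with each other. The array labelled Cx47-deficient naive differed from WT naive in genes of particular brain regions. As medians, 12 striatal genes lay 2.10 below WT naive and 13 cerebellar genes 1.97 above it. Both lists varied over the 8 arrays, with striatal medians between -0.10 and 2.45 and cerebellar medians between -0.26 and 3.70. WT naive was at 2.42 and 1.52, near the upper end of the striatal range, so it is not a neutral baseline either. The main counts are therefore also given against WT naive. All 20 astrocyte markers examined were well above background on both arrays, and so were all 18 general neuronal genes, all 20 myelin genes and all 13 cerebellar neuron genes, so RNA of other cell types was measured too. On the EAE and naive arrays 65.5% and 65.8% of spots were well above background (59.7% to 72.0% over all 8 arrays), the median local background was 81 and 80, and the spike-in slope was 1.06 and 0.920.

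EAE in Cx47-deficient mice was marked by higher levels of chemokines, antigen presentation genes, interferon-induced GTPases and complement, beside small differences in astrocyte transporters and lower levels of myelin genes. Of 24626 genes, 1258 were higher by 2-fold or more (5.11%) and 525 lower (2.13%). A symbol of the RefSeq gene table was carried by 1147 of the higher and 267 of the lower, and the others kept the name in the array file. By 4-fold or more, 498 were higher (2.02%) and 7 lower (0.0284%). The median over all genes was -0.05, with the 5th and 95th percentiles at -0.77 and 1.02. Counts of list members past 2-fold in this comparison stand beside the 5.11% and 2.13% over all genes. Of the higher genes, 327 were dim on the naive array and have only a lower bound for their fold, and 98 of the lower genes were dim on the EAE array. Where a gene had several kept probes, every probe was above 0 for 302 of 335 higher genes and below 0 for 89 of 95 lower ones. Of the genes past 2-fold, 70.6% were higher; the share was 83.4% with normexp background correction (660 higher and 131 lower) and 86.6% against WT naive (1519 higher, or 6.35%, and 235 lower, or 0.982%).

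**Figure D1:**
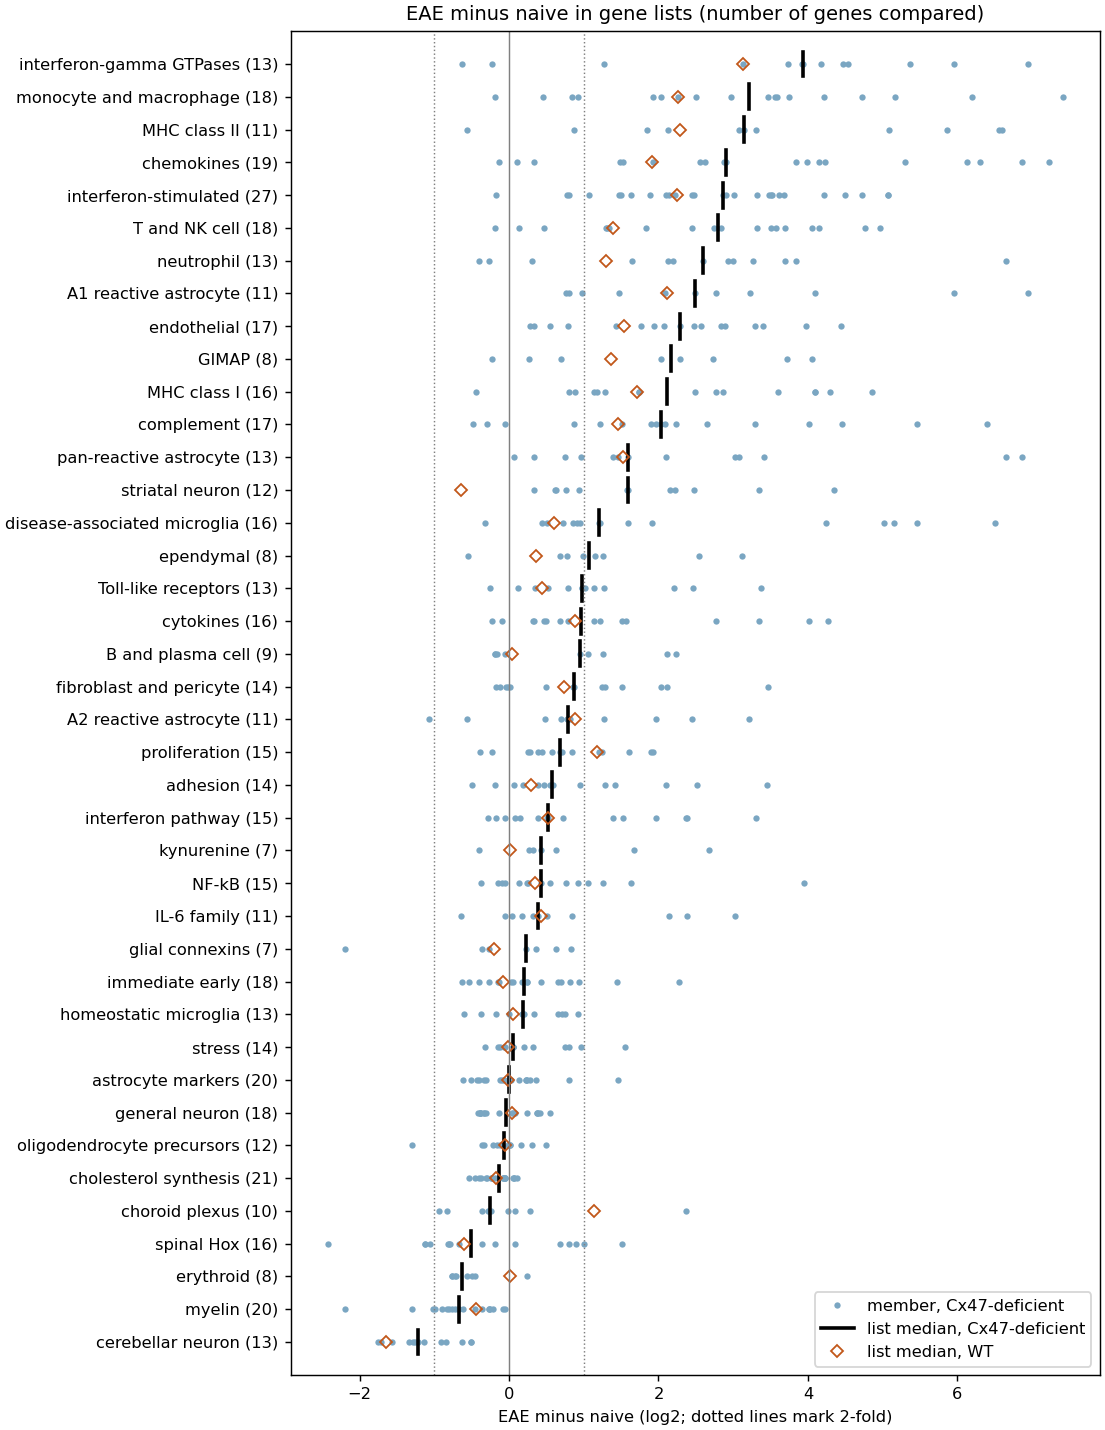
EAE minus naive (log2, x axis) in 40 gene lists (y axis, with the number of genes compared). Points are list members in Cx47-deficient mice, black bars their medians and open diamonds the WT medians; 16 lists have a Cx47-deficient median of 1 or more, and the striatal list lies at 1.59 in Cx47-deficient mice and at -0.65 in WT.

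Among the genes of the interferon pathway itself, 6 of the 15 compared were 2-fold higher and 0 lower, with a median of 0.53. Ifng, which encodes interferon-gamma, was at -3.50 on the EAE array and dim on the naive array, at least 3.90-fold higher. Irf1, a factor induced by interferon-gamma, was at 1.98 with EAE and -1.32 naive (9.88-fold), and the myeloid factor Irf8 at 1.59 and -0.77 (5.14-fold). Socs3 and Socs1, feedback inhibitors of cytokine signalling, were higher by 2.38 and 1.39. The receptor genes Ifngr1, Ifngr2, Ifnar1 and Ifnar2 differed by 0.72, 0.15, -0.28 and 0.51, and the kinase genes Jak1, Jak2 and Tyk2 by -0.05, 0.38 and 0.08. Of the other regulatory factors, Irf5 was higher by 1.53, and Irf2 and Irf3 differed by 0.53 and -0.17. Ifnb1, which encodes interferon-beta, was dim on both arrays.

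Interferon-gamma inducible GTPases, which attack vacuoles of intracellular microbes, had the highest median of the 40 lists, 3.94. Of 13 compared, 11 were 2-fold higher and 0 lower. Iigp1 was at 2.54 on the EAE array and -4.41 on the naive array, a 123.5-fold difference, although its other kept probe differed by only 0.88. Gbp2, a guanylate-binding protein, was at 2.14 and -3.81 (62.0-fold), Ifi47 at 1.24 and -4.13 (41.3-fold), and Gbp3 at 1.49 and -3.05 (23.2-fold). Gbp9 went against the list at -0.22, and was at -0.13 in WT mice. Gbp5 was at -0.63 by its brightest probe, but its other probe was at 3.31, and against WT naive it was at 0.25. Against WT naive, 11 of the 13 were again 2-fold higher.

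Interferon-stimulated antiviral genes were higher in 24 of 27 cases and lower in 0, with a median of 2.87. Oas1a, a sensor of double-stranded RNA, was at 1.27 with EAE and -3.80 naive, 33.5-fold higher. The nucleic acid sensor Zbp1 was at -0.40 with EAE and dim on the naive array, at least 33.6-fold higher. Irf7, the factor that drives type I interferon production, was at 2.64 and -2.09 (26.5-fold), and Oasl2 at 1.59 and -2.90 (22.6-fold). Stat2, a factor of type I interferon signalling, was alone below 0, at -0.17, and was at 0.76 against WT naive. Of these 27 genes, 27 were well above background on the EAE array and 21 on the naive array.

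Most interferon-gamma GTPases and interferon-stimulated genes were higher by 2-fold or more, and promoters were read for the letters of ISRE, GAS and kB elements. The motifs searched on both strands were GAAANNGAAA for the ISRE core, TTCNNNGAA for GAS and GGGANNTTCC for kB, in the 250 bases before the start of each gene in the RefSeq promoter table (GRCm38.p6). A window was found for 14162 of the genes compared, among them 332 of the 498 genes higher by 4-fold and 194 of the 525 genes lower by 2-fold. The ISRE core was present in 49 of the 332 (14.8%), in 4 of the 194 (2.06%), in 390 of the 14162 (2.75%) and in 821 of all 27025 windows (3.04%). GAS was present in 36 of the 332 (10.8%), 12 of the 194 (6.19%), 866 of the 14162 (6.12%) and 1940 of all windows (7.18%). The kB motif was present in 9 (2.71%), 4 (2.06%), 167 (1.18%) and 316 (1.17%) in the same order. An ISRE and a GAS match overlapped in 2 of the 332 windows and in 12 of the 14162. By list, the ISRE core was found in 7 of 8 windows of interferon-gamma GTPases, 8 of 19 of interferon-stimulated genes, 3 of 12 of chemokines, 2 of 13 of MHC class I and 1 of 8 of MHC class II. A match is a description of letters and not a site or a cause. The windows of 4 genes with large differences are shown. These genes were chosen among those that hold a match, so they do not tell how common matches are. Matches are in capitals, and letters run 5′ to 3′ on the strand of the gene:
Cxcl10 (chr5:92348890-92349139, minus strand): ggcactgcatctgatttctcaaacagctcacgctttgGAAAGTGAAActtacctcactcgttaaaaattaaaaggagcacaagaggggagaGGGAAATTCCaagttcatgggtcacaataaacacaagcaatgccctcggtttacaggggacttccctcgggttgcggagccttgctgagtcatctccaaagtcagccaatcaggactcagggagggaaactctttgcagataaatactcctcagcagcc
Gbp2 (chr3:142620413-142620662, plus strand): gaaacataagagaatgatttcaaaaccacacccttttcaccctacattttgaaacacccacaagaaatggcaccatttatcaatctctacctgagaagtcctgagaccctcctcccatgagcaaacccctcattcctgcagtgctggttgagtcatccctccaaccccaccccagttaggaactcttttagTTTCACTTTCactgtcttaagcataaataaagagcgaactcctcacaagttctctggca
Oas1a (chr5:120907526-120907775, minus strand): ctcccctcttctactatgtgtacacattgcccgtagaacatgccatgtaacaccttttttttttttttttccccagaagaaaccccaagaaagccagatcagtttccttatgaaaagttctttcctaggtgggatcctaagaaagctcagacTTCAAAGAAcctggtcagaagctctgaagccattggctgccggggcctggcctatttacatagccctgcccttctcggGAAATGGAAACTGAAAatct
Gbp3 (chr3:142559794-142560043, plus strand): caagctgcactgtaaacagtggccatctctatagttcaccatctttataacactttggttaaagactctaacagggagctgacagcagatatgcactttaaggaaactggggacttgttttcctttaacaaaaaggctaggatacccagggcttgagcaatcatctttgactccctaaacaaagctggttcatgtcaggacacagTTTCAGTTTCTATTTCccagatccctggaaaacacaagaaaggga
In Cxcl10 an ISRE core lies 213 to 204 bases and a kB motif 159 to 150 bases before the start. Gbp2 has 1 ISRE core, 59 to 50 bases before the start. Oas1a has a pair of overlapping ISRE cores between 20 and 5 bases before the start and a GAS motif 98 to 90 bases before it. Gbp3 has a pair of overlapping ISRE cores between 45 and 30 bases before the start.

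Antigen presentation genes of both classes were higher. H2-Ab1 and H2-Aa, the chains of the class II molecule I-A, were at 4.85 and 1.91 on the EAE array, against -1.75 and -4.64 on the naive array, or 97.0-fold and 94.0-fold higher. H2-Eb1, the beta chain of I-E, was at 4.68 and -1.18 (58.0-fold). The invariant chain Cd74 was at 4.21 and -0.87 (33.9-fold). Peptide loading and processing followed: H2-DMb1 was higher by 3.08, the lysosomal reductase Ifi30 by 3.15 and the protease Ctss by 2.13. Of 11 class II genes compared, 9 were 2-fold higher and 0 lower (median 3.15); against WT naive it was 10. Ciita, the master regulator of the class, was at -1.24 with EAE and -0.68 naive, a difference of -0.56 that rests on 1 of its 3 probes: they ranged between -0.56 and 3.25, with a mean of 1.15.

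Of 16 class I genes, 13 were higher and 0 lower (median 2.11). Nlrc5, the regulator of class I transcription, was at -0.61 with EAE and dim on the naive array, at least 28.9-fold higher. The immunoproteasome subunits Psmb9 and Psmb8 were at 1.58 and 1.81 with EAE and -2.72 and -2.29 naive (19.7-fold and 17.1-fold). The peptide transporter Tap1 was at 0.70 and -3.39 (17.0-fold). The heavy chains H2-K1 and H2-D1 and the light chain B2m were higher by 3.60, 2.49 and 2.86. H2-Q4, a non-classical class I gene, was at -0.45, in WT at -1.07, and at 0.40 against WT naive; class I genes are near-identical copies of each other, so their probes may share signal.

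Chemokines that draw T cells and monocytes were among the largest differences of the comparison. Ccl5, which attracts T cells and monocytes, was at 3.38 with EAE and -3.84 naive, 149.6-fold higher. The CXCR3 ligand Cxcl10 was at 2.20 and -4.67 (116.7-fold), and its relative Cxcl9 was at 0.66 with EAE and dim on the naive array, at least 70.0-fold higher. Ccl2, the main attractant of CCR2-bearing monocytes, was at 0.90 and -5.40 (78.6-fold). The B cell attractant Cxcl13 was dim on the naive array and at least 18.7-fold higher. Of 19 chemokines compared, 16 were 2-fold higher and 0 lower, with a median of 2.91, and 16 were also higher against WT naive. Below 0 there was 1 chemokine, and against WT naive there were 3. Constitutive members differed little: Cx3cl1, the neuronal fractalkine, by 0.10, and Cxcl14 by 0.33. Cxcl11 went against the list at -0.13, with levels of 7.27 and 7.40 in Cx47-deficient mice and 7.31 and 7.36 in WT mice, for EAE and naive in each case.

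Complement and acute phase genes were higher on the EAE array. Saa3, an acute phase apolipoprotein, showed the largest difference of all named genes, at 2.06 with EAE and dim on the naive array, at least 183.9-fold higher. Its relative in the acute phase response, haptoglobin (Hp), which was outside the lists and was chosen after its values were seen, was at least 49.3-fold higher. Factor B (Cfb), the protease of the alternative pathway, was at 0.93 with EAE and dim on both naive arrays, at least 84.2-fold higher. Ms4a15, a membrane protein of the family of B cell antigen CD20 that no list held, was at 0.87 with EAE and dim on both naive arrays, at least 80.9-fold higher. C3, the central complement component, was at 3.40 and -1.06 (22.0-fold), and C4b at 3.76 and -0.26 (16.2-fold). The C1q chains C1qa, C1qb and C1qc, made mainly by microglia, were higher by 2.03, 1.97 and 1.90. Among receptors, the integrin Itgax was at least 43.9-fold higher, while Itgam differed by -0.30. The regulators Cd55 and Cd59a were at -0.06 and -0.48, but the probes of Cd55 ranged between -0.33 and 1.13. In all, 13 of 17 complement genes were higher and 0 lower, with a median of 2.03.

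Reactive astrocyte genes were higher, while genes of astrocyte identity and transport differed little. Gfap, the intermediate filament that marks reactive astrocytes, was at 3.88 with EAE and 2.41 naive, 2.76-fold higher, with 2 probes at 1.44 and 1.46. The iron-binding protein Lcn2 was at 2.96 and -3.69 (100.4-fold) and the protease inhibitor Serpina3n at 1.54 and -1.88 (10.68-fold). Timp1 and the oncostatin M receptor Osmr were higher by 3.08 and 3.02. Vim, another filament gene, was at 2.86 and 2.79 in Cx47-deficient mice, a difference of 0.07, and at 2.16 and 1.13 in WT mice, a difference of 1.03. Of 13 pan-reactive genes 9 were higher and 0 lower (median 1.59). Of 11 genes called A1 reactive, a neurotoxic state described after lipopolysaccharide, 8 were higher and 0 lower (median 2.49). Of 11 genes called A2 reactive, described after ischaemia, 4 were higher and 1 lower (median 0.79), with Tm4sf1 9.27-fold higher, Tgm1 at least 5.48-fold higher and Clcf1, which was dim on the EAE array, at least 2.10-fold lower. These lists share members with others: Iigp1 and Gbp2 are interferon-induced, Cxcl10 is counted among the chemokines, and Lcn2 is also counted among the neutrophil genes.

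Of 20 astrocyte markers, Gfap alone was past 2-fold, and the median was 0.00. The glutamate transporters Slc1a2 and Slc1a3 differed by 0.23 and -0.40, glutamine synthetase (Glul) by 0.24, the potassium channel Kcnj10 by 0.02 and the water channel Aqp4 by 0.81. S100b had the lowest value, -0.61, from 5.82 with EAE and 6.43 naive. Gja1 was at 0.64 and 0.28, a difference of 0.36, but its 4 probes ranged between -1.06 and 0.50. Gjb6, the astrocytic Cx30, was at 2.99 and 2.76, a difference of 0.23. Among other glial connexins, Gjb1 and Gjc3 of oligodendrocytes were at -0.27 and -0.37 and Gjb2 at 0.82.

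**Figure D2:**
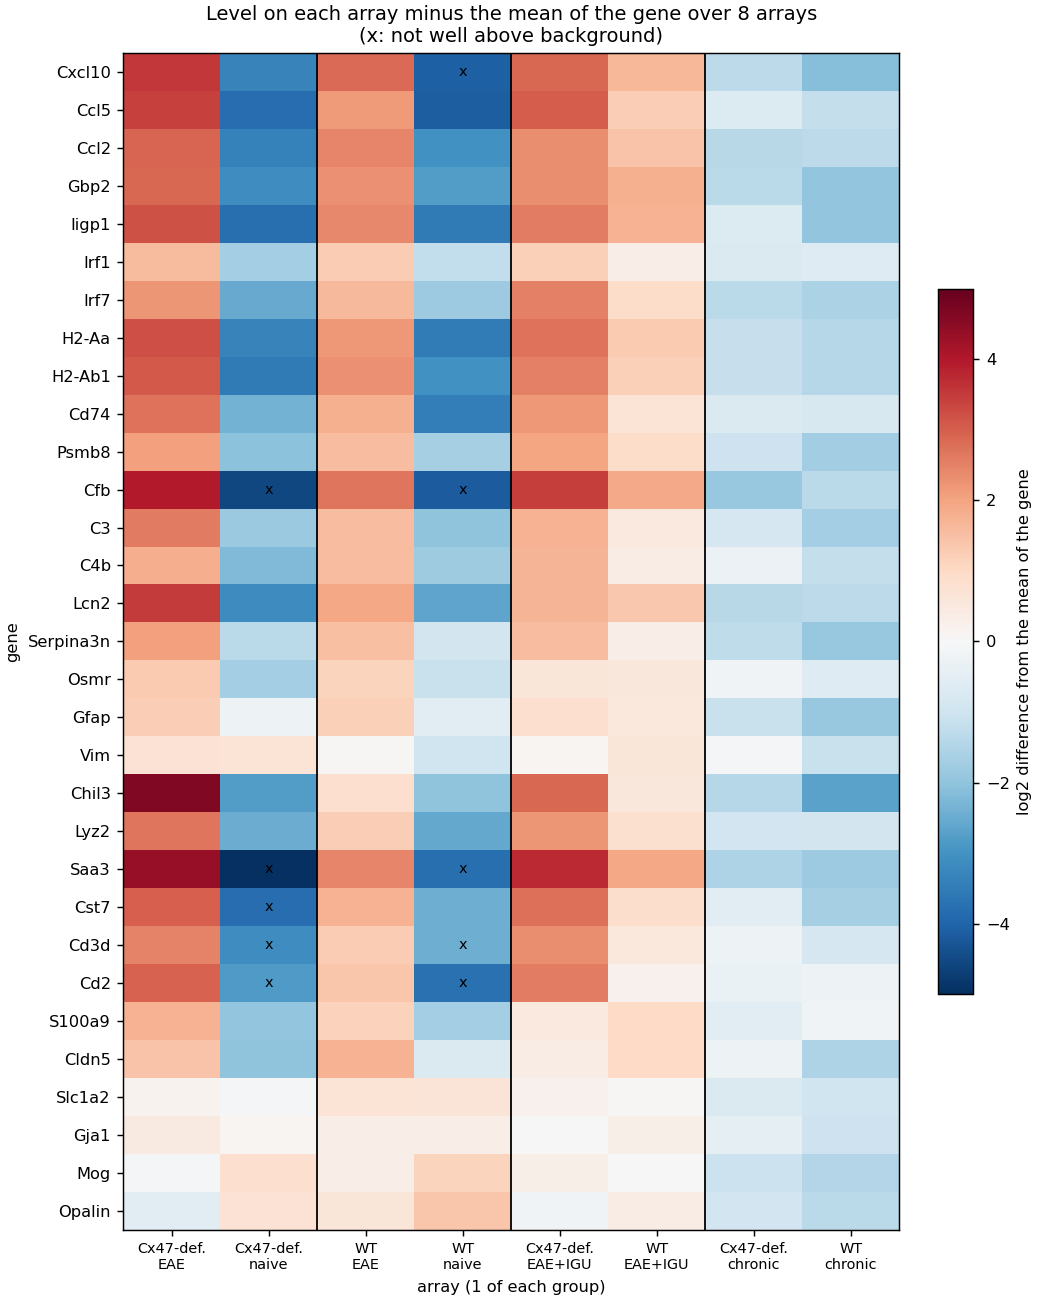
Level of genes named in the text (rows) on each of the 8 arrays (columns) as a log2 difference from the mean of the gene over the arrays, red above and blue below it; a cross marks a value not well above background. Cxcl10, H2-Aa and Cfb are red on the Cx47-deficient EAE array and blue on the naive array beside it, whereas Slc1a2 and Gja1 are pale on both.

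Myelin genes were lower on the EAE array: all 20 were below 0, with a median of -0.67, although 3 were past 2-fold. Opalin, a protein of mature oligodendrocytes, was at -1.64 with EAE and -0.34 naive, 2.46-fold lower, and Fa2h, which hydroxylates myelin lipids, was at 1.73 and 2.75 (2.03-fold lower). Mobp and Mog, which encode proteins of myelin, were at -0.99 and -0.90, and Mbp at -0.46. Ermn and Trf were nearer to 0, at -0.21 and -0.08. Fewer oligodendrocytes and less RNA per oligodendrocyte cannot be told apart in RNA of this kind. Against WT naive 18 of the 20 were below 0 and 8 were 2-fold lower, with a median of -0.87. The 3 of 20 past 2-fold stand beside a background of 2.13%.

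Genes of oligodendrocyte precursors were mostly close to 0 (median -0.07 over 12). Pdgfra, the receptor that marks precursors, differed by 0.30, Olig2 by -0.13 and Gpr17, of cells about to differentiate, by -0.17. The exception was Enpp6, a marker of newly forming oligodendrocytes, at -1.82 with EAE and -0.52 naive, 2.46-fold lower, but its difference from WT naive was -0.84, so that 0 of the 12 were 2-fold lower against that array. Cholesterol synthesis genes, which supply lipid to myelin, were within 2-fold in all 21 cases, with 17 below 0 and a median of -0.13; Sqle, the squalene epoxidase, differed by -0.37.

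Markers of infiltrating immune cells moved with the groups above. Chil3, a macrophage lectin, was at 2.34 with EAE and -5.07 naive, 170.2-fold higher. Plac8, of monocytes, was at 0.72 with EAE and dim on the naive array, at least 73.0-fold higher. Lysozyme (Lyz2) was at 6.07 and 0.91 (35.8-fold) and Ly6c2, of inflammatory monocytes, at 3.79 and -0.93 (26.3-fold). Of 18 monocyte and macrophage genes 14 were higher and 0 lower (median 3.22), and 18 were well above background with EAE and 15 naive. The receptor Ccr2 was at -2.29 and -4.56, while Cd163 and Mrc1, of resident border macrophages, differed by 0.45 and 0.93. Vcan was at -0.18, and at 0.31 against WT naive.

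Neutrophil genes were higher in 10 of 13 cases and lower in 0 (median 2.60). The largest difference among them was that of Lcn2, described above with the reactive astrocyte genes. The calprotectin genes S100a8 and S100a9 were at 1.47 and 3.07 with EAE, against -2.37 and -0.62 naive, or 14.3-fold and 12.97-fold higher. The granule gene Ltf was at -2.02 and -5.28 (9.62-fold), and Mpo, of earlier granules, was at least 7.98-fold higher. Csf3r and Mmp9 were at -0.41 and -0.27, but at 0.44 and 0.31 against WT naive, where 1 other neutrophil gene was below 0. T and NK cell genes were higher in 15 of 18 cases and lower in 0, with a median of 2.79. Cd3d, of the T cell receptor complex, was at -0.50 with EAE and dim on the naive array, at least 31.3-fold higher. The adhesion receptor Cd2 was at least 27.0-fold higher, the granule protein Nkg7 at least 17.8-fold and Tbx21, the regulator of interferon-gamma producing T cells, at least 16.7-fold. All 18 were well above background on the EAE array and 8 on each naive array, so most folds here are bounds. Prf1, which encodes perforin, was at -0.19, but at 0.33 against WT naive, where 2 other T and NK cell genes were below 0. B and plasma cell genes were higher in 4 of 9 cases, led by Jchain (4.71-fold) and Cd79b (4.34-fold), with a median of 0.95; with normexp the median was 0.18, and over genes well above background on both arrays it was -0.051. Of the lymphocyte GTPases, 5 of 8 were higher (median 2.16), with Gimap3 at least 16.6-fold and Gimap4 at least 13.1-fold higher. Gimap8 was at -0.23, but at 0.94 against WT naive, where 1 other member was below 0. These counts stand beside backgrounds of 5.11% higher and 2.13% lower, and their part in the differences of the other gene groups was not tested.

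Homeostatic microglia genes differed little while some genes of activated microglia were much higher. All 13 homeostatic genes were within 2-fold (median 0.19): P2ry12 differed by 0.00, Tmem119 by 0.71, and Siglech by -0.17. Cst7, a protease inhibitor of disease-associated microglia, was at 1.04 with EAE and dim on the naive array, at least 90.9-fold higher. The beta-glucan receptor Clec7a was at 2.24 and -2.91 (35.6-fold), Gpnmb at -0.17 and -5.20 (32.5-fold) and Lgals3 at 2.39 and -1.85 (18.8-fold). Apoe and the lysosomal protease Ctsb differed by 0.73 and 0.44, and Lpl was at -0.32, with its 6 probes between -0.32 and 1.55 and a value of 0.70 against WT naive. Of 16 genes of disease-associated microglia, 9 were higher and 0 lower (median 1.21). Several of them, Lgals3 and Gpnmb included, are also expressed by infiltrating macrophages.

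Of 16 cytokine genes 8 were higher and 0 lower (median 0.96), beside 5.11% and 2.13% of all genes. Below 0 there were 2 of them, and against WT naive there were 4. Il1b was at -1.45 with EAE and dim on the naive array, at least 16.2-fold higher, and its antagonist Il1rn at least 6.82-fold. Lymphotoxin beta (Ltb) was at -0.14 and -4.40 (19.3-fold) and Csf2rb, the shared receptor chain of GM-CSF, at 0.26 and -3.08 (10.1-fold). Tnf differed by 0.49, and its receptors Tnfrsf1a and Tnfrsf1b by 1.57 and -0.23, although the other probe of Tnfrsf1b was at 2.62. Il6 was at -4.99 with EAE and dim on the naive array, at least 1.39-fold higher; Il17a, Csf2, Il12b and Il10 were dim on both arrays. In the IL-6 family 3 of 11 were higher (median 0.38): Osmr, Socs3 and the ligand Osm, which was at least 4.39-fold higher, against 0.18 for the shared receptor Il6st.

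Toll-like receptor genes were higher in 6 of 13 cases (median 0.98), with Tlr2, which senses bacterial lipoproteins, at 0.53 and -2.84 (10.4-fold), its partner Tlr1 higher by 2.46 and Tlr6 by 2.21 (log2). Tlr4 and Tlr9 differed by 0.35 and 0.12, and Ly96, the partner of Tlr4, by -0.26, with its other probe at 0.47. NF-kB genes were higher in 4 of 15 cases (median 0.43). The share of all genes that were higher was 5.11%. Bcl3, an atypical inhibitor protein of the family, was at -0.40 and -4.35 (15.5-fold), and the feedback inhibitor Tnfaip3 at -0.80 and -1.85 (2.08-fold), while the subunits Rela and Nfkb1 differed by -0.09 and 0.25.

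Vessel genes were higher as well, but the array labelled Cx47-deficient naive was low in them. Of 17 endothelial genes 13 were higher and 0 lower (median 2.29). Ly6c1, of brain endothelium, was at 3.88 with EAE and -0.57 naive (21.8-fold), von Willebrand factor (Vwf) at 0.01 and -3.97 (15.7-fold) and the tight junction gene Cldn5 10.6-fold higher. The transporter Slco1a4 was at -0.54 and -3.82 (9.75-fold). On the naive array these genes lay below WT naive by a median of -0.95, and against WT naive 11 were higher, with a median of 1.57. Leukocyte adhesion genes were higher in 5 of 14 cases (median 0.57): Icam2 by 10.9-fold, Icam1 by 5.73-fold, Itgb2 by 4.30-fold, Itgb7 by 2.67-fold and Itgal by 2.44-fold. Vcam1, the ligand of the integrin that carries T cells into the brain, differed by 0.95, and its receptor chain Itga4 by 0.47. Madcam1 was at -0.50. The shares over all genes were 5.11% higher and 2.13% lower.

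Fibroblast and pericyte genes were higher in 6 of 14 cases (median 0.86). The matrix protein Fn1, also counted among the monocyte and macrophage genes, was 10.99-fold higher. The pericyte gene Rgs5 was 4.35-fold and Kcnj8 4.11-fold higher, and the collagens Col1a1 and Col1a2 were at -0.18 and -0.02. Ependymal genes were higher in 4 of 8 cases (median 1.07): Tmem212 at least 8.66-fold, Ccdc153 5.80-fold, Rarres2 2.39-fold and Mia 2.22-fold. They lay below WT naive on the naive array by a median of -0.47, and against WT naive 3 were higher. Choroid plexus genes had a median of -0.26 over 10, with the thyroxine carrier Ttr at 3.59 and 3.60 and the water channel Aqp1 alone past 2-fold, at -1.31 and -3.68 (5.15-fold). In WT mice 6 of the 10 were higher, with a median of 1.13; against WT naive the Cx47-deficient median was 0.27. Haemoglobin and other erythroid genes had a median of -0.64 over 8, with Hba-a1 at 4.59 and 5.32. Over all genes 5.11% were higher, and 1 of 10 choroid plexus genes is a count near that share.

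Genes of particular brain regions also differed between the arrays, although the label gives spinal cord, and here the naive array decides the direction. Of 12 genes of striatal neurons 7 were higher and 0 lower (median 1.59). The adenosine receptor Adora2a was at -1.12 with EAE and dim at -5.97 naive, at least 20.4-fold higher; on the WT arrays it was at -0.42 and 0.46. Gpr6 was at -0.82 and -4.17 (10.1-fold) and the dopamine receptor Drd1 at 0.93 and -1.54 (5.55-fold). The list lay 2.10 below WT naive on the naive array, and against WT naive 0 of the 12 were higher and 2 lower, with a median of -0.65.

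Of 13 genes of cerebellar neurons 8 were lower and 0 higher, with a median of -1.22. Zic2 was at -1.47 with EAE and 0.28 naive (3.36-fold lower), Fat2 at 1.56 and 3.27 (3.27-fold lower) and the granule cell gene Cbln3 at -0.90 and 0.66 (2.96-fold lower). The list lay 1.97 above WT naive on the naive array, and against WT naive 2 of the 13 were higher and 0 lower, with a median of 0.70. In WT mice 10 of the 13 were lower in EAE (median -1.65). General neuronal genes were within 2-fold in all 18 cases (median -0.04), with Snap25 at -0.30, Map2 at 0.42 and Gad2 at 0.55.

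Hox genes mark position along the spinal cord. Of the 16 listed, 1 was higher and 4 lower (median -0.51), and outside the list Hoxb13, Hoxc11 and Hoxa11, chosen after their values were seen, were higher by at least 2.66, at least 2.51 and 1.51. Hoxc8 was at -3.79 with EAE and -1.36 naive (5.38-fold lower), and Hoxc9, Hoxb8 and Hoxc6 were lower by 2.19-fold, 2.18-fold and 2.08-fold. Hoxd10 was at -3.93 and -5.44, 2.85-fold higher. Against WT naive 0 were higher and 7 lower. Whether these regional lists reflect what tissue the RNA held on each array was not tested, and neither was their part in the other differences.

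**Figure D3:**
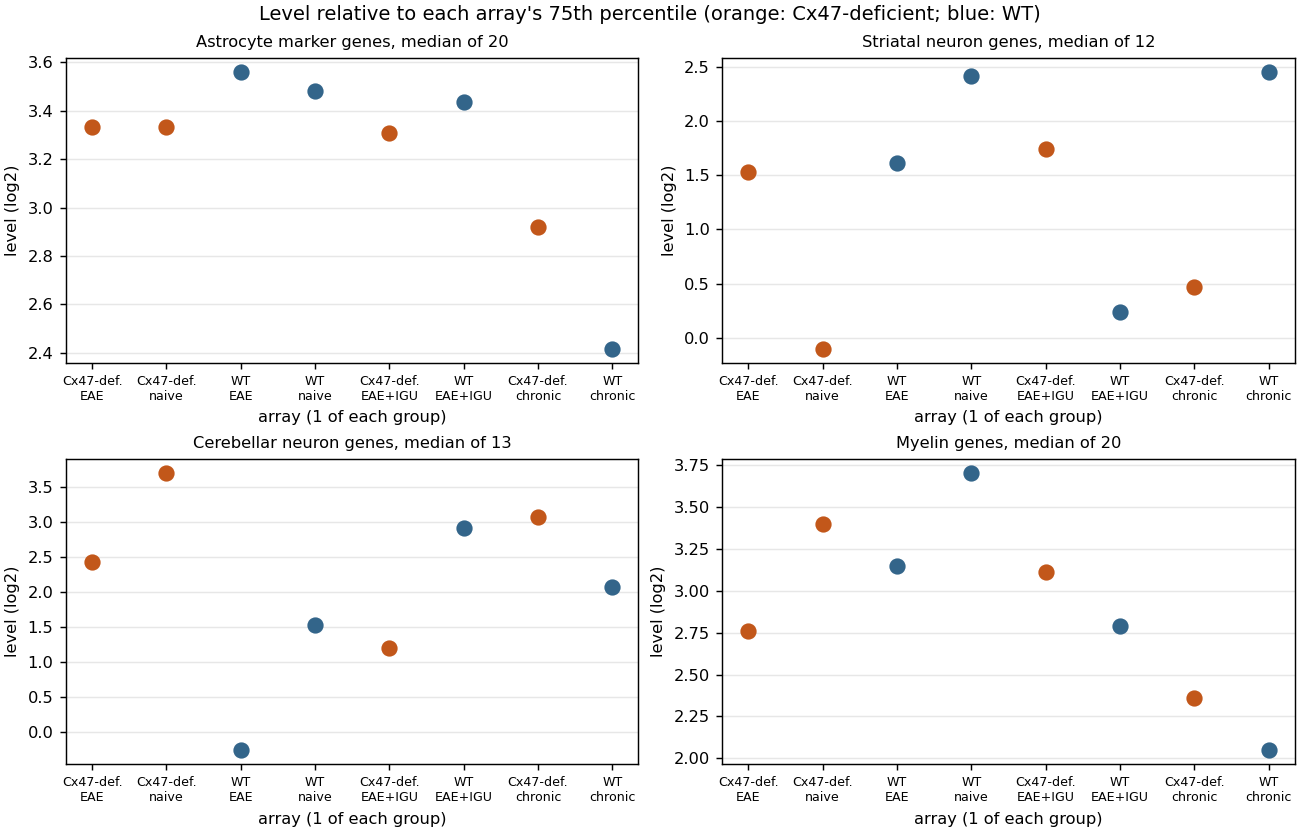
Level (log2 relative to the 75th percentile of the array, y axis) as the median of 20 astrocyte marker, 12 striatal, 13 cerebellar and 20 myelin genes on each array (x axis, 1 array of each group), Cx47-deficient in orange and WT in blue. The array labelled Cx47-deficient naive has the lowest striatal median of the 8 arrays, -0.10, and the highest cerebellar median, 3.70. WT chronic EAE has the highest striatal median, 2.45, with WT naive at 2.42, and WT EAE has the lowest cerebellar median, -0.26.

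The genes lower in EAE rested largely on the naive array used. Among the largest of them, Slc6a2, the noradrenaline transporter, was dim on the EAE array and at -2.96 naive, at least 5.79-fold lower. Then came Hoxc8, described above, and Col27a1, a fibrillar collagen gene, at -4.45 and -2.39 (4.17-fold lower), and Cnpy1 at -0.95 and 0.91 (3.64-fold lower). The others, Gm33733, Il20rb, Npb, Zic2, Svep1, Mdfi and Fat2, were lower by 3.27-fold to 3.58-fold. Against WT naive, Slc6a2 and Npb stayed past 2-fold at -1.15 and -1.74, whereas Il20rb and Cnpy1 were higher by 1.04 and 1.11. Npb encodes neuropeptide B.

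Over all genes, 840 of the 1258 higher genes (66.8%) were also 2-fold above WT naive, 407 were within 2-fold and 11 were 2-fold below it. Of the 525 lower genes, 29 (5.52%) were also 2-fold below WT naive, 346 were within 2-fold, 64 were 2-fold above it, and the rest were dim on both the EAE array and WT naive. For 376 of the 525 the naive arrays themselves differed by 2-fold, and in 375 of them the array labelled Cx47-deficient naive was above WT naive. Over all genes compared, that array was 2-fold above WT naive for 1926 (8.03%) and below it for 640 (2.67%). Besides those already described, genes lower against either naive array included Opalin and Fa2h.

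**Figure D4:**
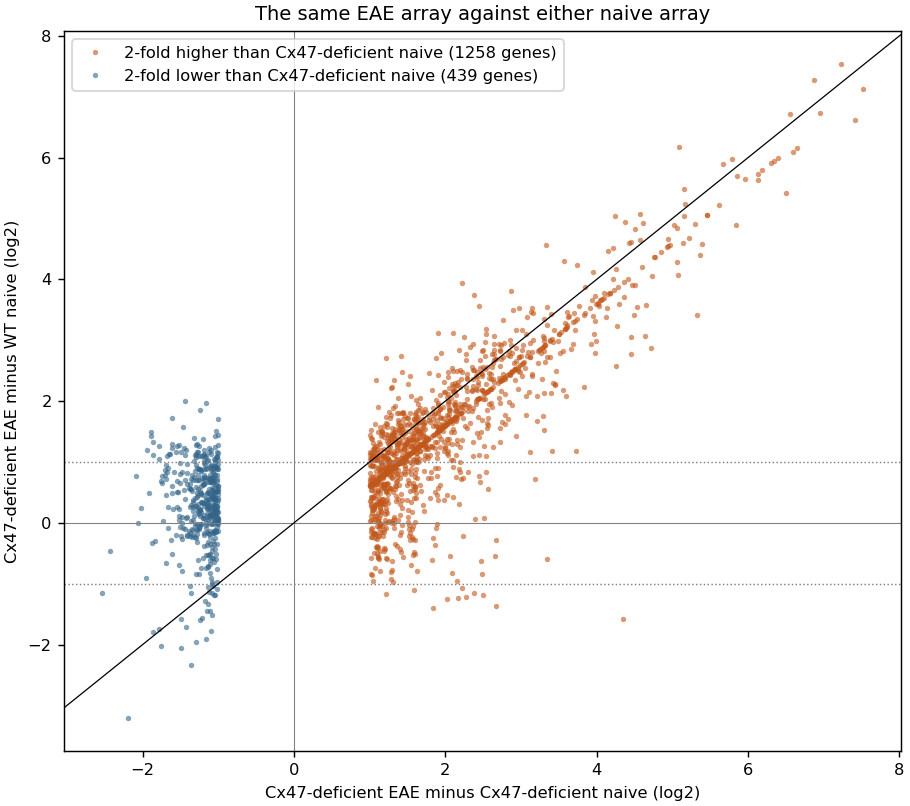
Cx47-deficient EAE minus Cx47-deficient naive (x axis, log2) and Cx47-deficient EAE minus WT naive (y axis, log2) for the genes higher (orange, 1258) or lower (blue, 439 with a value) by 2-fold on the x axis; both axes share the EAE array. Dotted lines mark 2-fold and the diagonal marks equal values; most orange points lie above the upper dotted line, and 29 blue points lie below the lower one.

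The most similar comparison, WT EAE minus WT naive, shares no array with this one. In WT 765 of 22605 genes were higher by 2-fold (3.38%) and 439 lower (1.94%), and by 4-fold 249 (1.10%) and 35 (0.155%). Among the 22337 genes compared in both genotypes, 660 were 2-fold higher in both, which was 55.1% of the 1199 higher in Cx47-deficient mice and 88.2% of the 748 higher in WT. A dim value was raised to the lowest level well above background, which was -5.47 on Cx47-deficient naive and -5.07 on WT naive. For genes raised on both naive arrays, equal EAE levels would thus give a larger bound in Cx47-deficient mice. Of the 660, therefore, only the 474 well above background on all 4 arrays were compared in size, a choice made after seeing the data. The difference was larger in Cx47-deficient mice for 420 of them, with medians of 2.17 in Cx47-deficient mice and 1.66 in WT. The share with a larger difference in Cx47-deficient mice over all 22337 genes was not taken, so the 420 have no background beside them. Lower genes overlapped less, with 57 shared, or 16.1% of 354 in Cx47-deficient mice and 13.4% of 425 in WT. Across the 22337 genes, which are not independent replicates, Pearson's r was 0.72 and Spearman's rho 0.46. Set directly against WT EAE, the Cx47-deficient EAE array was 2-fold higher for 1610 of 23950 genes (6.72%) and lower for 184 (0.768%). The naive arrays were uneven the same way, with Cx47-deficient naive above WT naive by 2-fold for 1926 genes (8.03%) and below for 640 (2.67%). The imbalance was thus not particular to EAE. Of the 40 lists, 31 had a larger median in Cx47-deficient mice than in WT, with bounds included; choroid plexus genes (-0.26 and 1.13) and proliferation genes (0.63 and 1.18) were among those with a larger median in WT.

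Among single genes, Chil3 was 7.41 in Cx47-deficient mice and 2.82 in WT, from EAE levels of 2.34 and -1.45 and naive levels of -5.07 and -4.27. Lcn2 was 6.65 in Cx47-deficient mice and 4.59 in WT, and Ly6c2 4.72 and 2.66. Cd74 was 5.08 in Cx47-deficient mice and 5.22 in WT, and Cxcl10, dim on WT naive, was 6.87 and at least 6.59. Arginase 1 (Arg1), of alternatively activated macrophages, was smaller in Cx47-deficient mice, 2.50 against at least 3.81 in WT, and so was Aqp1, 2.37 against 3.64. Gfap was 1.46 in Cx47-deficient mice and 1.71 in WT. By list, over the genes well above background on all 4 arrays, 8 T and NK cell genes had medians of 1.30 in Cx47-deficient mice and 0.73 in WT. The medians were 3.27 and 1.92 for 7 neutrophil genes, 3.56 and 2.26 for 11 monocyte and macrophage genes, 3.15 and 2.29 for 11 class II genes, and -0.67 and -0.44 for 20 myelin genes. Whether the genotypes differ was not tested, since each difference rests on 1 array a side.

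**Figure D5:**
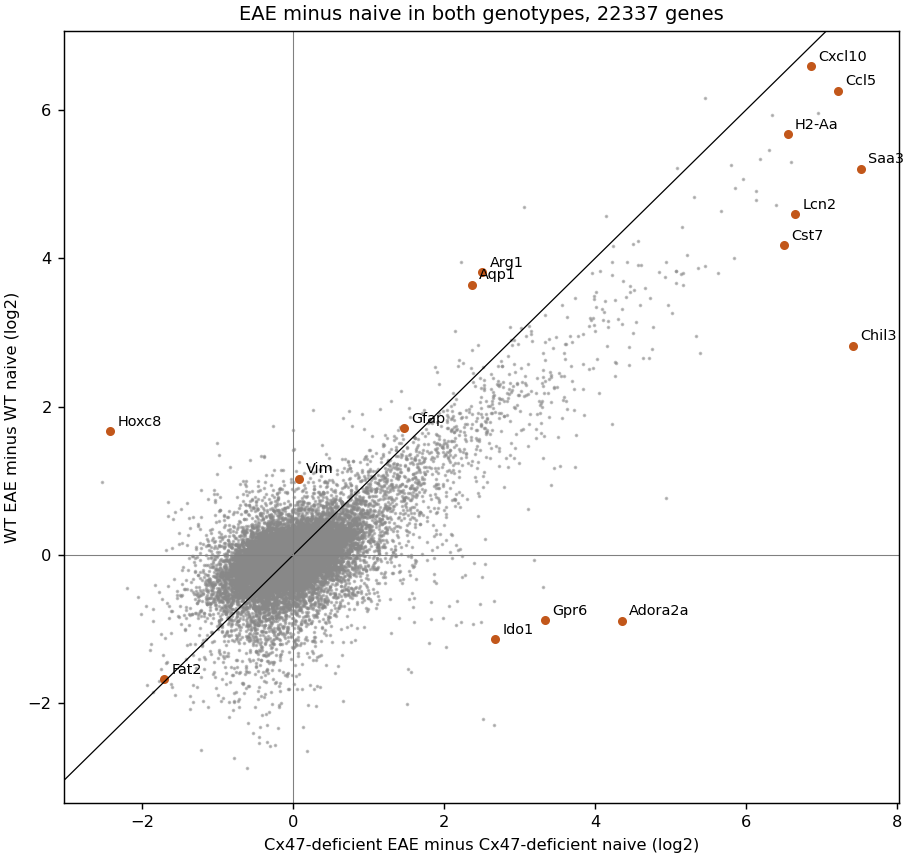
Cx47-deficient EAE minus Cx47-deficient naive (x axis, log2) and WT EAE minus WT naive (y axis, log2) for 22337 genes, with the diagonal marking equal values and named genes in orange. Chil3 lies at 7.41 in Cx47-deficient mice and 2.82 in WT, Arg1 above the diagonal, and Adora2a, Gpr6 and Ido1 below 0 in WT.

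The other Cx47-deficient disease arrays were set against the same naive array, so their values share it and only stand side by side. With EAE and iguratimod, the medians were 3.63 for interferon-gamma GTPases, 3.23 for chemokines, 2.83 for class II, 2.71 for T and NK cells, 1.26 for neutrophils and -0.33 for myelin. In chronic EAE they were 0.90, 1.21, 0.19, 0.89, 0.70 and -1.07 in the same order, on arrays of the other slide. Without treatment they were 3.94, 2.91, 3.15, 2.79, 2.60 and -0.67. Chil3 stood at 2.34 with EAE, 0.61 with iguratimod and -3.70 in chronic EAE.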

How the data were processed

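Each sample was hybridised to 1 Agilent array with 1 colour (Cy3). The files deposited by the authors hold scanner output, with the processed signal as a linear intensity that is background-subtracted, per the file headers. Feature Extraction was given as 10.7.1.1 in the file headers; the submitters' processing notes name 9.5.1.1. The authors' deposited table of processed values, also linear intensities, has a median near 50.2 on every array. Its values correlate with the scanner values at 0.99677 or more on the log2 scale. The authors' table served as an alternative only, and 0 of its columns lacked a sample.

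The log2 of each processed signal had the array's 75th percentile over non-control spots subtracted, after outlier spots were left out and repeated spots averaged (Python 3.11.15, numpy 2.4.6, pandas 2.3.3). Of 56605 probes, 32994 were named by accession, 10224 by symbol and 520 by synonym through the RefSeq gene table, and 12867 keep the name in the file. A gene with several probes took the probe with the highest mean over the 8 arrays. A dim value was raised to the lowest signal well above background on its array where it lay below that, so that a fold against it is a lower bound; genes dim on both arrays have no value. Normexp with an offset of 50 used limma 3.58.1 in R 4.3.3, and quantile normalization was done in Python. Figures used matplotlib 3.10.9. The steps were tested on simulated data. With 1 array a side there is no p-value and no count of tested genes.

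The text names the 12 largest higher and 12 largest lower genes that also pass 2-fold with normexp and with quantile normalization, up to 4 members of each list with the largest differences, members that go against their list, and Gfap, Gja1, Gjb6 and Il6. The targeted gene and a few others are not reported here. Other genes were named after their values were seen. The comparison, its members and the 40 gene lists were chosen with earlier results of these data known. Chronic EAE arrays lay on slide 2, the other 6 arrays on slide 1.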

Additional observations from a re-analysis of the deposited data

Results flagged for a closer look

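Of the genes compared in both genotypes, 12 differed by 2-fold or more in opposite directions, 5 of them Hox genes; these differences between the genotypes were not tested, and each rests on 1 array a side. In Cx47-deficient mice EAE minus naive was 2.66 for Hoxb13, 2.51 for Hoxc11, 1.51 for Hoxa11, 1.51 for Hoxd10 and -2.43 for Hoxc8, against -2.29, -2.21, -2.01, -1.55 and 1.67 in WT mice. Ido1, the interferon-induced enzyme that begins the kynurenine pathway, was 2.67 in Cx47-deficient mice and -1.14 in WT, with EAE levels of -1.85 and -1.62 and naive levels of -4.52 and -0.48. Sh3rf2 was 2.03 in Cx47-deficient mice and -1.24 in WT, AI606473 1.56 and -1.58, Musk, a receptor kinase of the neuromuscular junction, 1.29 and -1.05, and Gm2176 -1.01 and 1.51. Hoxb13, Hoxc11, Sh3rf2, AI606473 and Musk were dim on the Cx47-deficient naive array and Gm2176 on the Cx47-deficient EAE array, so their values there are bounds. Dim values on the WT arrays were raised in the same way, so WT differences can be bounds too. Of the 16 listed Hox genes, 14 were well above background on WT EAE. Against WT naive the Cx47-deficient EAE array differed by -0.28 for Hoxb13, 0.07 for Hoxc11, 0.01 for Hoxa11, -0.21 for Hoxd10, -0.46 for Hoxc8 and -1.37 for Ido1.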

How the results depend on the processing

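No paired analysis was possible because the labels give no replicate numbers and each group has 1 array; for the same reason no replicate could be left out. In place of the 1258 higher and 525 lower genes, normexp gave 660 and 131 (83.44% higher). A 3-fold limit gave 706 and 52 (93.14%), and WT naive as the baseline gave 235 lower (86.6% higher). Without a floor under dim values, an alternative chosen after seeing the data, 866 were lower. With normexp the list medians were 1.99 for chemokines, 1.74 for interferon-stimulated genes, 1.79 for monocytes, 1.24 for neutrophils, 1.395 for T and NK cells, 0.18 for B and plasma cells, 1.06 for GIMAP genes and 1.27 for endothelium. With genes well above background on both arrays they were 1.30 for T and NK cells, -0.051 for B and plasma cells and 1.49 for GIMAP genes. The mean of a gene's probes gave 1.65 for A1 genes, and no floor gave 3.61 for chemokines and 3.48 for T and NK cells. Against WT naive, the endothelial median was 1.57, and the sign turned for the medians of striatal (-0.65), cerebellar (0.70), erythroid (0.28), immediate early (-0.45), choroid plexus (0.27), astrocyte marker (-0.28), glial connexin (-0.26) and stress genes (-0.03). It also turned for genes past 2-fold: Adora2a (-1.58), Drd1 (-0.63), Gpr6 (-0.59), Cbln3 (1.17), Fat2 (0.79), Zic2 (0.65), Cnpy1 (1.11), Il20rb (1.04), Mdfi (0.027), Svep1 (0.76), Hoxb13 (-0.28), Hoxc9 (0.069), Hoxd10 (-0.21), Ido1 (-1.37), Musk (-0.0097), Sh3rf2 (-1.26) and AI606473 (-0.23). The cause of these shifts was not tested beyond the change of baseline, filter or background itself. Median centring, quantile normalization, the authors' values and no filter kept the counts of higher and lower genes within 1.5 times the main ones, at 1256 to 1422 higher and 457 to 536 lower. Signal near background limits the genes dim on 1 array to bounds.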

Other observations

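Several further gene groups were measured. Proliferation genes were higher in 5 of 15 cases and lower in 0 in Cx47-deficient mice (median 0.68), with the topoisomerase Top2a, the thymidine kinase Tk1 and the cycle marker Mki67 higher by 1.93, 1.91 and 1.60; the WT median was larger, at 1.18. Kynurenine pathway genes were higher in 2 of 7 cases (median 0.43), namely Ido1 at 2.67 and Kmo, a hydroxylase of microglia, at 1.67. Immediate early genes, which respond within minutes to activity or handling, were higher in 2 of 18 cases (median 0.21): Atf3, a stress-induced factor, by 2.28 and Zfp36, which destabilises cytokine mRNA, by 1.44, while Fos was at -0.62. Of 14 stress genes, haem oxygenase (Hmox1) alone was past 2-fold, at 1.56 (median 0.05). Over all genes 5.11% were higher and 2.13% lower, so a count as small as 1 of 14 is near that share.

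Omp, S100a5 and Doc2g, known from olfactory neurons, were in no list and were chosen after their values were seen; how other genes of such neurons stood was not examined. The olfactory marker protein Omp was at -0.83 with EAE and -3.89 naive in Cx47-deficient mice, against 1.30 and -3.38 in WT mice. S100a5 was at -0.01 with EAE and dim on the naive array in Cx47-deficient mice, at least 43.9-fold higher, and at 1.09 with EAE and dim on the naive array in WT mice. Doc2g was at 1.36 and -0.85 in Cx47-deficient mice, and at 1.38 and -2.58 in WT mice. What tissue these signals came from was not tested.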
